A study of Mus musculus with 8 samples.

Results

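ER-associated degradation (ERAD) is the route by which misfolded proteins leave the endoplasmic reticulum (ER) for the proteasome, and 34 of its genes were followed here in pancreatic islets. The 34 genes were given as a list of symbols. A gene of the count table was a member where its symbol (33 genes) or an alias in the table's annotation field (1 gene, Hm13, which the table lists as H13) was on the list. All 34 were found among the 24537 genes of the table, and all 34 had enough reads to be tested. They fell into 6 lectins and mannosidases, 6 genes of the HRD1 ligase complex, 3 derlins, 6 other ligases and conjugating enzymes, 8 genes of extraction by the ATPase VCP, and 5 cofactors.

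The samples were islets, the hormone-secreting clusters of the pancreas, from male mice aged 12 weeks that received no treatment. There were 4 WT and 4 Wfs1KO samples, the second labelled as a knockout of Wfs1, the gene for the ER membrane protein wolframin. Mouse strain, the design of the Wfs1 allele, and whether a sample pooled islets of several mice are not given in the sources used here, so p-values measure the spread between these samples. Values are polyadenylated RNA, given as CPM, read counts scaled to a common library size.

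In ERAD, mannosidases trim the glycans of proteins that fail to fold and lectins hand these proteins to a ligase complex of the ER membrane. The ligase HRD1 with its adaptor SEL1L, helped by derlins, moves the protein across the membrane and ubiquitinates it, and VCP pulls it into the cytosol. Beta cells make large amounts of proinsulin and depend on this route, and wolframin has been reported to bring the stress sensor ATF6 to HRD1 for degradation.

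Exon counts per library ran from 15810830 to 27057617, and a member had between 230 and 16791 counts in a library. The first principal component of all tested genes (37.9% of variance) parted replicates 1 and 2 from replicates 3 and 4 in both genotypes, and the second (28.4%) parted the genotypes. Summed acinar markers, from the enzyme-secreting cells around islets, ran from 11529 CPM per kb in Wfs1KO replicate 3 to 81935 in WT replicate 3. Wfs1 itself stood at 156 to 190.1 CPM in WT and still at 98.9 to 125 CPM in Wfs1KO libraries. It was lower in 4 of 4 (log2 fold change -0.74, SE 0.08, edgeR adjusted p = 5.06e-05), and counts over all exons of a gene do not show which exons the reads come from. Islet markers were abundant in every library (Ins2 at least 58208 CPM, Gcg at least 14516 CPM).

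Of the 34 members 18 rose in Wfs1KO islets, 0 fell and 16 did not pass. A gene is said to have risen or fallen where edgeR's quasi-likelihood test gave it a p under 0.05 after Benjamini-Hochberg adjustment over the 15733 tested genes. At an unadjusted p under 0.05, 1 member (Bag6) was lower, and DESeq2 called that 1 as well. In the same comparison 18.9% of all tested genes were called in either direction, 10.4% of them higher and 8.49% lower. Among the 7223 tested genes at least as abundant as the lowest member, 13.4% rose. The members' median log2 fold change was 0.22, beside 0.01 over all tested genes, and 31 of 34 values were above 0. These counts describe a list whose members were chosen with earlier results of these data known.

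The rises were small apart from that of 1 derlin. Derl3 was 3.39-fold higher, and the other members that rose were between 1.15-fold and 1.68-fold higher. At least 1.5-fold were Derl3, Hm13, Sel1l and Selenos. In 20 members the 4 Wfs1KO libraries all lay above the 4 WT libraries, and in 0 they all lay below, beside 12.3% and 10.3% of all tested genes. The 20 were the 18 that rose, Man1b1 and Ube2j1. Summed over the 34 members, the level per kb of exon was 1330.3 ± 54.3 CPM per kb in WT and 1728 ± 50.2 CPM per kb in Wfs1KO (SD, n = 4 each), a ratio of 1.30 with no overlap between genotypes.

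**Figure D1:**
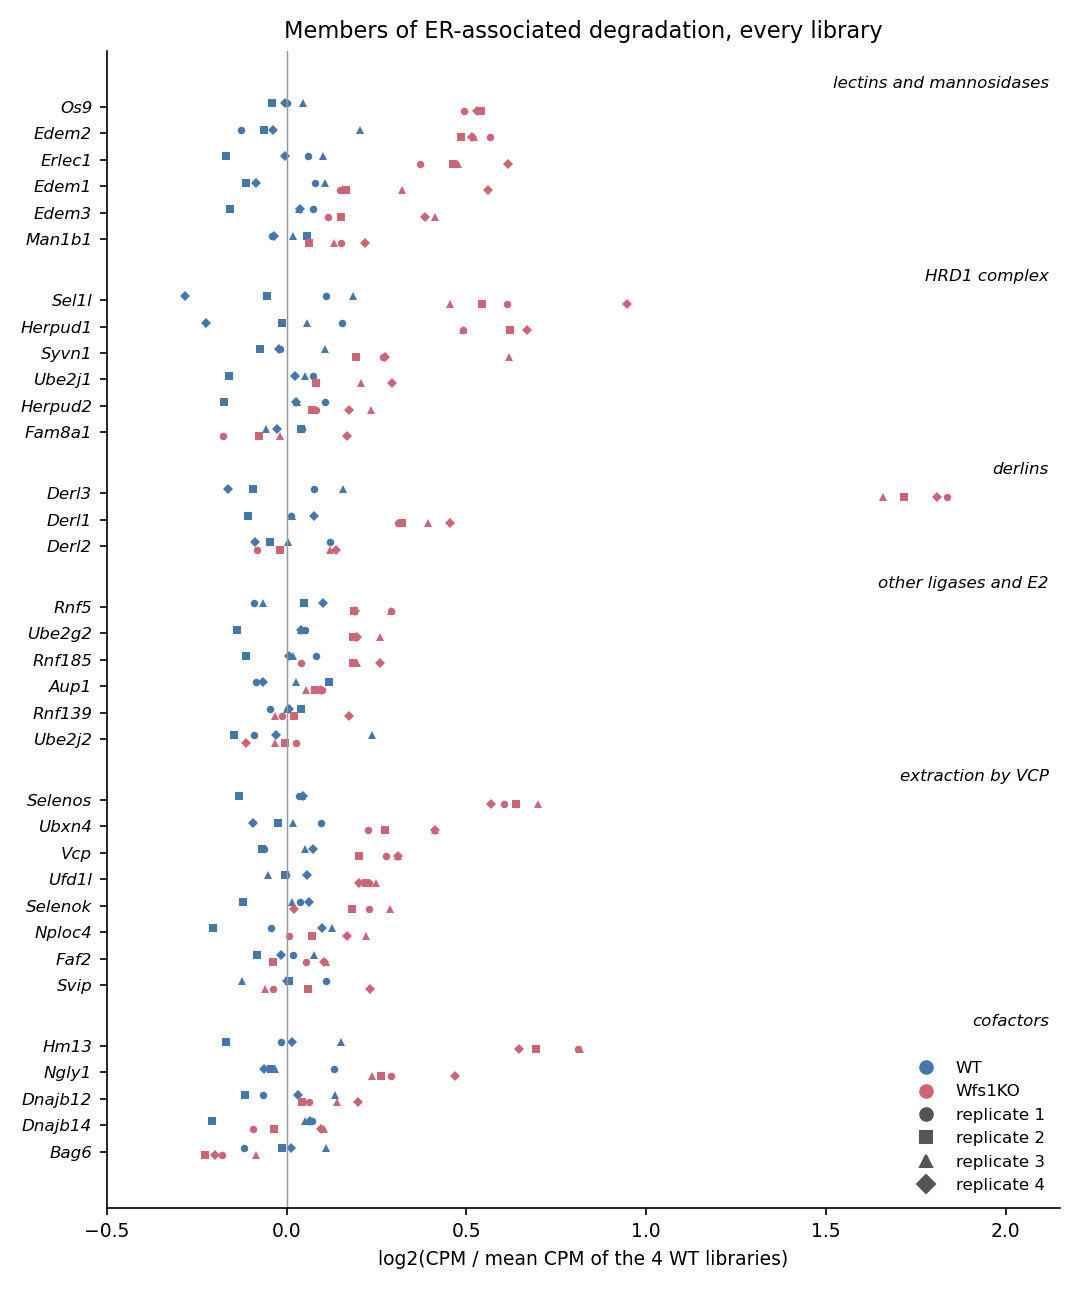
Each point is 1 library, placed by the log2 of its CPM over the mean CPM of the 4 WT libraries, with WT in blue, Wfs1KO in red, and the replicate number given by the shape; genes are grouped by step and ordered by fold change. The Wfs1KO points of Derl3 stand far to the right, those of Os9, Selenos and Hm13 are clear of the WT points, and the genotypes overlap in others such as Derl2 and Ube2j2.

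**Figure D2:**
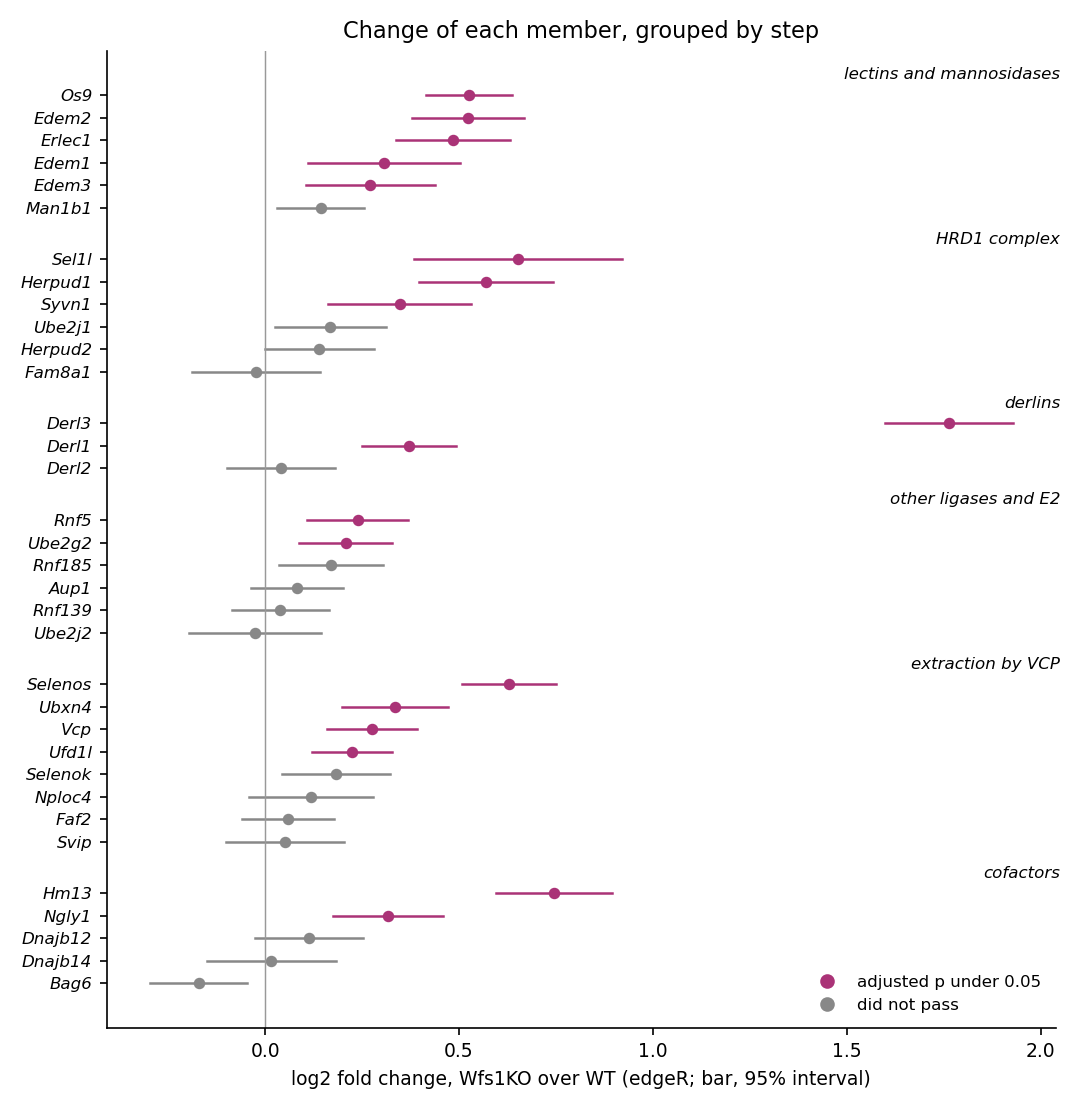
Log2 fold change of each member (Wfs1KO over WT, edgeR) with its 95% interval, which is not adjusted for the number of genes, by step. The 18 members that passed the adjusted threshold are coloured and the 16 others are grey; 5 of 6 lectins and mannosidases passed, and 2 of 6 other ligases and conjugating enzymes.

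The steps differed in how many members passed. Of the 6 lectins and mannosidases 5 rose (median log2 fold change 0.40), of the 6 HRD1 complex genes 3 (0.26), of the 3 derlins 2 (0.37), and of the 8 genes of extraction 4 (0.20). Of the 6 other ligases and conjugating enzymes 2 rose (0.13), and of the 5 cofactors 2 (0.11). Summed per kb of exon, the ratio of Wfs1KO to WT was 1.46 for derlins, 1.40 for the HRD1 complex, 1.35 for lectins and mannosidases, 1.23 for extraction, 1.17 for cofactors and 1.11 for the other ligases and conjugating enzymes, and in each of the 6 sums the genotypes did not overlap. Whether the steps differ from each other was not tested.

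Of the members with a promoter 5 hold, upstream of the start site, an exact match to an element through which the unfolded protein response switches on genes, and the letters are shown for the 4 of them whose stretch overlaps no annotated exon. ATF6 and XBP1 are the factors known to bind these elements. Promoters came from RefSeq (GRCm38.p6, the assembly of mm10), 250 bases before to 50 bases after a start, and 28 of the 34 members matched. The stretches below run 5′ to 3′ on the gene's own strand, with the motif in capitals and up to 30 bases on either side. Derl3 holds the ER stress response element (ERSE) read on the opposite strand at bases -156 to -138 from the start, and Syvn1 the same element on its own strand at -44 to -26. Herpud1 holds the second form (ERSE-II) at -52 to -42, and Vcp the unfolded protein response element (UPRE, TGACGTGG) at -114 to -107.
Derl3, chr10:75893212-75893290, plus strand: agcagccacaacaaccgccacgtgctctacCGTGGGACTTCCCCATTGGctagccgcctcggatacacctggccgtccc
Syvn1, chr19:6046502-6046575, plus strand: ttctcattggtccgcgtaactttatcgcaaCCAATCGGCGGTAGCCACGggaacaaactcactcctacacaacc
Herpud1, chr8:94386347-94386417, plus strand: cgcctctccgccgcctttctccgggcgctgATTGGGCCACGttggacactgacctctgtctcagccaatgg
Vcp, chr4:43000584-43000651, minus strand: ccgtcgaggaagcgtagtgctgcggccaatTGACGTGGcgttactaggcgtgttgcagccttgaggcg

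Of the 5 members 4 rose, the 4 shown, and Ube2j1, whose stretch overlaps an exon, did not pass. The motifs were searched on both strands and need not be sites of binding. The ERSE was found in 37 of 27025 genes with a promoter (0.137%) and in 2 of the 28 members, the ERSE-II in 12 genes (0.0444%) and 1 member, and the UPRE in 193 genes (0.714%) and 2 members. The UPRE members were Vcp and Ube2j1. A further motif, the core of the element bound by ATF4 with its partners (CARE, TGATGNAA), was found in 4.51% of genes and in 2 members, Herpud1, which rose, and Faf2, which did not pass. The motifs share no letters where they were found in the same member.

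Among the lectins and mannosidases, Os9 and Erlec1 encode the lectins that bind trimmed glycans and dock at SEL1L. Os9 (NM_001171026, chromosome 10, 127094259 to 127121160 in mm10, minus strand) measured, from replicate 1 to 4, 299, 291, 309 and 298 CPM in the WT libraries and 421, 435, 435 and 432 CPM in the Wfs1KO libraries; values of other genes follow the same order. Every Wfs1KO library was far above every WT library, and the spread within each genotype was small. The log2 fold change was 0.53 (SE 0.05, edgeR adjusted p = 1.30e-05). Erlec1 stood at 99.3, 84.8, 102 and 95.1 CPM in WT and at 123, 131, 133 and 146 CPM in Wfs1KO. Its rise was of like size (0.48, SE 0.07, edgeR adjusted p = 2.55e-04), and the ratio of Os9 to Erlec1 per kb, 2.72 ± 0.168 in WT and 2.80 ± 0.171 in Wfs1KO (SD, n = 4), overlapped between genotypes.

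The EDEM proteins and ER mannosidase I (Man1b1) remove mannoses and so mark a glycoprotein for disposal. Edem2 stood at 121, 126, 152 and 128 CPM in WT and at 195, 184, 189 and 188 CPM in Wfs1KO, with no overlap (log2 fold change 0.52, SE 0.07, edgeR adjusted p = 1.23e-04). Edem1 ran from 164 to 191 CPM in WT and from 196 to 261 CPM in Wfs1KO, where replicates 3 and 4 were the highest (0.31, edgeR adjusted p = 0.0319). Edem3 ran from 147 to 173 CPM and from 178 to 219 CPM (0.27, edgeR adjusted p = 0.0248), again highest in Wfs1KO replicates 3 and 4. The smaller rises of Edem1 and Edem3 depended on single libraries. Edem1 did not pass when WT replicate 2, WT replicate 4, Wfs1KO replicate 3 or Wfs1KO replicate 4 was left out, and Edem3 when WT replicate 2, WT replicate 3, Wfs1KO replicate 3 or Wfs1KO replicate 4 was left out (highest edgeR adjusted p 0.0876 and 0.0984). In replicates 1 and 2 alone they stood at 0.15 each, against 0.42 and 0.35 in replicates 3 and 4 alone. Edem2 made up 51.0% ± 2.51 of the summed EDEM level per kb in WT and 55.1% ± 3.04 in Wfs1KO (SD, n = 4), with overlap. Man1b1 stood at 78.3 to 83.8 CPM in WT and at 84.2 to 93.8 CPM in Wfs1KO, parted by a narrow gap (0.14, edgeR adjusted p = 0.0728).

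In the HRD1 complex the ligase, its adaptor and its ubiquitin-like partner rose. Sel1l (NM_001039089, chromosome 12, 91806043 to 91849157, minus strand), the adaptor, stood at 415, 370.1, 437 and 316 CPM in WT and at 588, 559.8, 527 and 740.4 CPM in Wfs1KO. Replicate 4 was the lowest of the WT libraries and the highest of the Wfs1KO libraries. The log2 fold change was 0.65 (SE 0.12, edgeR adjusted p = 0.00326). In replicates 3 and 4 alone it was 0.74 and did not pass (adjusted p = 0.283), and in replicates 1 and 2 alone it was 0.53 (adjusted p = 1.35e-04).

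Syvn1, which encodes the ligase HRD1 itself, stood at 86.5, 83.1, 94.2 and 86.3 CPM in WT and at 105, 99.97, 134 and 106 CPM in Wfs1KO (log2 fold change 0.35, SE 0.08, edgeR adjusted p = 0.0117). All Wfs1KO libraries were above WT, and replicate 3 stood well above the other 3; without it the value was 0.24 and still passed (adjusted p = 0.0182). Its exons overlap those of Mrpl49 on the other strand, whose log2 fold change was 0.01. Herpud1, the gene for HERP, was the most abundant member per kb, at 213 ± 23.0 CPM per kb in WT and 317 ± 19.9 CPM per kb in Wfs1KO (SD, n = 4). It stood at 442, 394, 413 and 340.2 CPM in WT and at 558, 610.5, 557 and 630.5 CPM in Wfs1KO, with no overlap (0.57, SE 0.08, edgeR adjusted p = 2.49e-04).

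The 3 other genes of the complex did not pass. Herpud2, the paralog of Herpud1, stood at 64.8 to 78.7 CPM in WT and 76.8 to 86.0 CPM in Wfs1KO (log2 fold change 0.14, edgeR adjusted p = 0.163). Herpud1 held 88.8% ± 1.23 of the pair's summed level per kb in WT and 91.5% ± 0.708 in Wfs1KO (SD, n = 4), with no overlap. Fam8a1, a cofactor of HRD1, was nearly level (22.9 ± 0.793 and 22.5 ± 2.31 CPM, SD, n = 4), with a 95% interval of its log2 fold change from -0.19 to 0.14. Ube2j1, the conjugating enzyme that works with HRD1, stood at 0.17 (edgeR adjusted p = 0.0980), with the 4 Wfs1KO libraries just above WT (129 to 149 CPM against 109 to 128). With replicates 1 and 2 against 3 and 4 as a term it passed (adjusted p = 0.0489).

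Derlins are membrane proteins related to rhomboid proteases that thin the membrane beside the ligase. Derl3 (NM_024440, chromosome 10, 75893398 to 75895941, plus strand) measured 14.9, 13.3, 15.8 and 12.7 CPM in the WT libraries and 50.6, 46.6, 44.7 and 49.6 CPM in the Wfs1KO libraries. All 4 Wfs1KO libraries stood far above the WT libraries, and the spread within each genotype was small. The log2 fold change was 1.76 (SE 0.08, 95% interval 1.60 to 1.93, edgeR adjusted p = 1.31e-08) and stayed between 1.63 and 1.82 over the 20 alternative settings. Derl1 stood at 143, 132, 143 and 149 CPM in WT and at 176, 177, 186 and 194 CPM in Wfs1KO, with no overlap (0.37, SE 0.06, edgeR adjusted p = 4.46e-04). Derl2 did not pass, at 106 to 122 CPM in WT and 106 to 124 CPM in Wfs1KO (0.04, 95% interval -0.10 to 0.18, edgeR adjusted p = 0.722), and its exons overlap those of Mis12 on the other strand, which rose (0.27, edgeR adjusted p = 0.0257).

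The make-up of the derlins therefore differed between genotypes. Per kb of exon, Derl3 held 12.5%, 12.3%, 13.5% and 11.1% of the summed derlin level in WT replicates 1 to 4 and 31.0%, 28.9%, 26.7% and 28.1% in Wfs1KO replicates 1 to 4. Derl1 held 52.4% ± 2.13 of the sum in WT and 46.4% ± 0.625 in Wfs1KO, and Derl2 35.3% ± 1.55 and 24.9% ± 1.19 (SD, n = 4); Derl3 is part of the same sum. Among all 34 members ordered by level per kb, Derl3 had rank 32 in WT and rank 19 in Wfs1KO. The ratio of Derl3 to Derl2 per kb was 0.333 to 0.390 in WT and 1.02 to 1.33 in Wfs1KO.

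**Figure D3:**
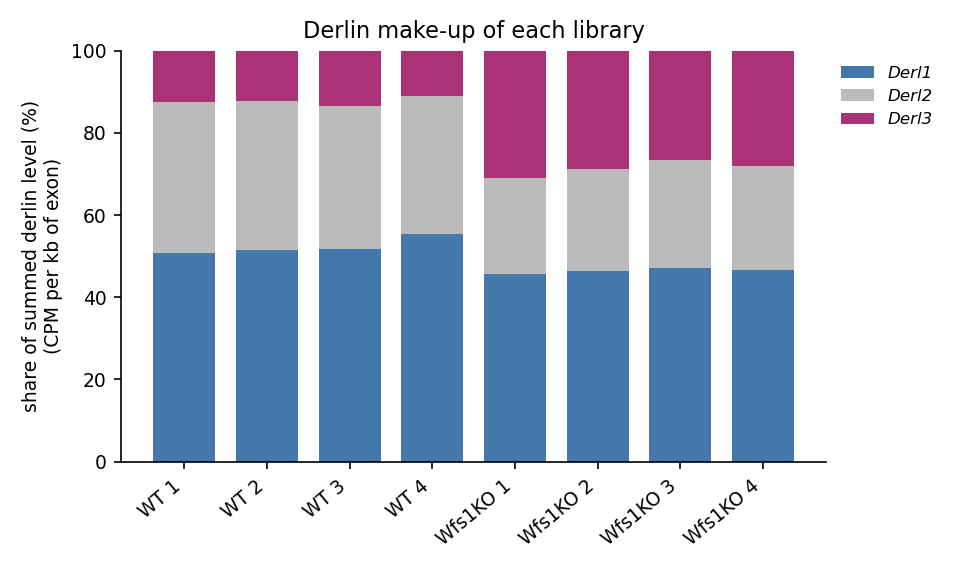
Stacked bars give, for each of the 8 libraries, the share of the summed derlin level (CPM per kb of exon) held by Derl1, Derl2 and Derl3. The Derl3 share lies between 11.1% and 13.5% in the WT libraries and between 26.7% and 31.0% in the Wfs1KO libraries.

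Among the other ligases and their conjugating enzymes 1 ligase and 1 conjugating enzyme rose, both by little. Rnf5, a membrane ligase, stood at 33.6, 37.0, 34.2 and 38.4 CPM in WT and at 43.8, 40.7, 43.7 and 40.9 CPM in Wfs1KO (log2 fold change 0.24, SE 0.06, edgeR adjusted p = 0.0129). Ube2g2, a conjugating enzyme, stood at 75.6, 66.3, 74.96 and 75.05 CPM in WT and at 83.4, 82.9, 87.3 and 83.6 CPM in Wfs1KO (0.21, SE 0.06, edgeR adjusted p = 0.0171). The genotypes did not overlap in either gene, although Ube2g2 did not pass without Wfs1KO replicate 3 (0.18, adjusted p = 0.0687). Aup1, which recruits UBE2G2 to the membrane, stood at 54.6 to 62.8 CPM in WT and 60.1 to 61.9 CPM in Wfs1KO (0.08, edgeR adjusted p = 0.348). Rnf185, a ligase close to Rnf5, stood at 0.17 (edgeR adjusted p = 0.0737) and passed without Wfs1KO replicate 1 (adjusted p = 0.0355). Rnf139, which encodes the ligase TRC8, stood at 0.04 (edgeR adjusted p = 0.704) and Ube2j2 at -0.03 (edgeR adjusted p = 0.865), with 95% intervals of -0.09 to 0.16 and -0.20 to 0.14. Ube2j1 was 4.13 ± 0.415 times as abundant per kb as Ube2j2 in WT and 4.72 ± 0.540 times in Wfs1KO (SD, n = 4), with overlap.

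Extraction from the membrane is done by VCP, an ATPase also called p97, with the pair UFD1 and NPL4 (Ufd1l and Nploc4) and adaptors that hold it at the ER. Vcp (NM_009503, chromosome 4, 42979964 to 43000507, minus strand) stood at 77.8, 77.6, 84.1 and 85.6 CPM in WT and at 98.5, 93.5, 101 and 101 CPM in Wfs1KO (log2 fold change 0.28, SE 0.05, edgeR adjusted p = 0.00266). Ufd1l stood at 69.4, 69.3, 67.1 and 72.4 CPM in WT and at 81.5, 81.1, 82.6 and 80.0 CPM in Wfs1KO (0.22, SE 0.05, edgeR adjusted p = 0.00458). In both genes the 4 Wfs1KO libraries lay above the 4 WT libraries. Nploc4, the partner of Ufd1l, overlapped between genotypes (84.8 to 107 CPM in WT, 98.3 to 114 CPM in Wfs1KO) and stood at 0.12 (edgeR adjusted p = 0.313).

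Of the membrane anchors of VCP, Selenos, the selenoprotein also called VIMP, had the largest fold change. It stood at 94.4, 84.2, 95.02 and 95.2 CPM in WT and at 140.2, 143, 149.8 and 137 CPM in Wfs1KO (log2 fold change 0.63, SE 0.06, edgeR adjusted p = 6.55e-06). The ratio of Selenos to Vcp per kb was 3.16 ± 0.154 in WT and 4.04 ± 0.214 in Wfs1KO (SD, n = 4), with no overlap. Ubxn4, a UBX-domain anchor of VCP, stood at 269, 248, 255 and 236 CPM in WT and at 295, 304, 336 and 336 CPM in Wfs1KO (0.33, SE 0.06, edgeR adjusted p = 0.00221), highest in replicates 3 and 4; in replicates 1 and 2 alone it was 0.19 (adjusted p = 0.116) against 0.44 in the other two. Selenok, the other selenoprotein, was the second most abundant member per kb in WT (90.02 ± 5.01 CPM per kb, SD, n = 4) and stood at 0.18 (edgeR adjusted p = 0.0663). Its Wfs1KO replicate 4, at 92.2 CPM, lay within the WT range, and without it Selenok passed (0.22, adjusted p = 0.0257). Faf2, another UBX-domain anchor, stood at 0.06 (edgeR adjusted p = 0.527), and Svip, a small inhibitor of VCP at the ER, at 0.05 (edgeR adjusted p = 0.682), both with overlap.

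Of the cofactors, Hm13 had the second largest fold change of all members. It encodes signal peptide peptidase, a protease of the ER membrane that also works in ERAD, and stood at 161, 145, 180.3 and 164 CPM in WT and at 285, 263, 286 and 254 CPM in Wfs1KO. The genotypes were far apart (log2 fold change 0.74, SE 0.07, edgeR adjusted p = 9.38e-06). The exons of Hm13 overlap those of Gm26841 on the other strand, for which no counts are given. Ngly1, the cytosolic glycanase that strips glycans from extracted proteins, stood at 52.1, 46.2, 46.5 and 45.5 CPM in WT and at 58.2, 57.1, 56.1 and 65.8 CPM in Wfs1KO (0.32, SE 0.07, edgeR adjusted p = 0.00395). The J-domain proteins of the ER membrane did not pass, Dnajb12 at 0.11 (edgeR adjusted p = 0.263) and Dnajb14 at 0.02 (edgeR adjusted p = 0.917), both with overlap.

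Bag6, a cytosolic chaperone that holds extracted proteins, had the lowest fold change of the members. It stood at 155, 166, 181 and 169.5 CPM in WT and at 148, 144, 158 and 146 CPM in Wfs1KO, with Wfs1KO replicate 3 inside the WT range. The log2 fold change was -0.17 (SE 0.06, edgeR adjusted p = 0.0569). It passed with the replicate block (adjusted p = 0.0437) and with DESeq2 (adjusted p = 0.0163), and in the authors' deposited table Bag6 had an adjusted p of 0.0263. Among the members in that authors' deposited table, 18 passed upwards, the 18 that rose here, and Bag6 was the 1 that passed downwards.

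**Figure D4:**
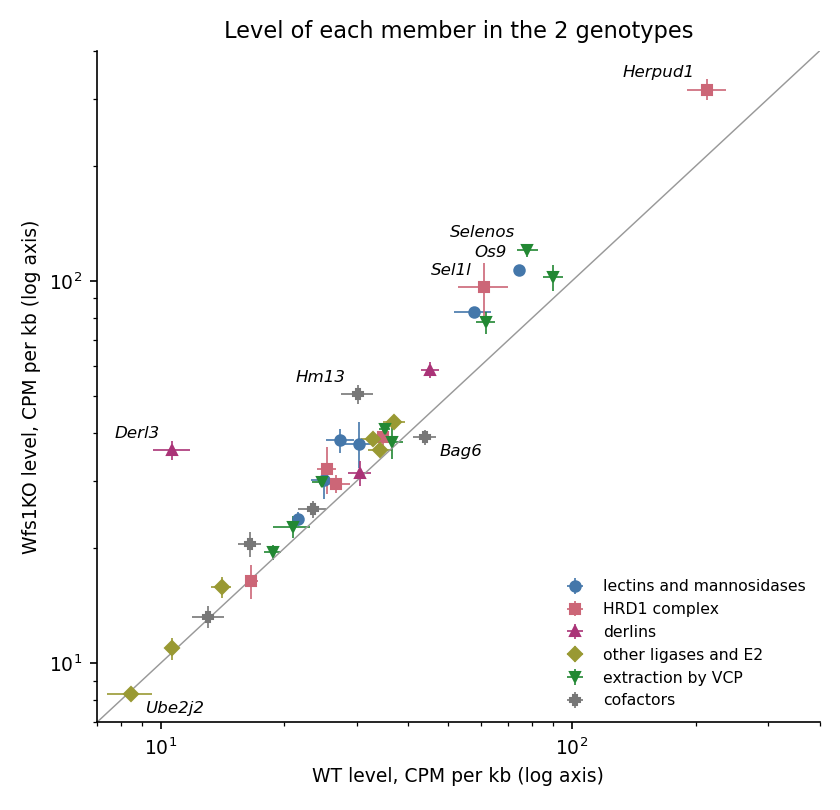
Mean level of each member in WT (horizontal) and Wfs1KO (vertical), in CPM per kb of exon on log axes, with SD bars (n = 4 per genotype) and the line of equal levels. Most members lie on or just above the line over levels from 8.47 (Ube2j2) to 213 (Herpud1) CPM per kb in WT, and Derl3 stands apart from the rest.

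The rises were looked at beside signs of other cells in the samples. In bulk samples, fewer cells of a type and less RNA per cell cannot be told apart. Of 14 endothelial markers 11 rose (median log2 fold change 0.49) and a summed level of 198 to 221 CPM per kb in WT and 279 to 319 CPM per kb in Wfs1KO, while Pecam1 and Cdh5 rose by 0.64 and 0.51. Because this score did not overlap between genotypes, its part in the members' rises cannot be told apart from genotype. With it as a covariate 170 genes were called higher and 87 lower, and 6 members passed: Derl3 (1.63), Erlec1 (0.76), Selenos (0.74), Edem3 (0.71), Os9 (0.58) and Derl1 (0.56). Of the 12 members that no longer passed 9 had a larger log2 fold change than without it, such as Sel1l (0.73) and Herpud1 (0.70), and Edem2 (0.37), Hm13 (0.69) and Rnf5 (0.15) had a smaller one. Over the 34 members the median was 0.38 with 31 above 0. Of 12 stellate cell and pericyte markers 4 rose (summed level 51.6 to 70.7 CPM per kb in WT, 84.7 to 114 in Wfs1KO), and of 10 macrophage markers 0 passed in edgeR, adjusted or not, (72.2 to 118 and 78.2 to 171 CPM per kb). The stellate cell and pericyte sum did not overlap between genotypes, so its part cannot be told apart from genotype. The part of the macrophages was not tested. Of 10 beta cell markers 8 fell and 1 rose (median log2 fold change -0.65). Their summed level was 269497 to 346789 CPM per kb in WT and 179484 to 222040 in Wfs1KO. This sum did not overlap between genotypes either, so its part in the members' rises cannot be told apart from genotype.

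Derl3 is known to be abundant in acinar and plasma cells, so its values were set beside both. Of 19 tested acinar markers 0 passed in edgeR, adjusted or not, and their summed level overlapped between genotypes (36219 to 81935 CPM per kb in WT, 11529 to 76224 in Wfs1KO). All 19 had a log2 fold change below 0 (median -0.39). Wfs1KO replicates 3 and 4 had the lowest and the second highest acinar level of all libraries, and Derl3 at 44.7 and 49.6 CPM. Wfs1KO replicates 1 to 3 lay below every WT library in acinar level. Fitted with the acinar score beside genotype, Derl3 had a log2 fold change of 1.81. In that fit 1477 genes were called higher and 1143 lower, and 17 members passed. Edem3 was the 1 member that rose without the score and did not pass with it. Of 8 tested plasma and B cell markers 0 passed in edgeR and 1 had an unadjusted p under 0.05, with summed levels of 19.3 to 64.5 CPM per kb in WT and 11.3 to 56.4 in Wfs1KO, and the defining markers Jchain (0.491 to 42.9 and 1.24 to 27.8 CPM) and Mzb1 (1.23 to 4.39 and 0.940 to 4.52 CPM) overlapped. The duct marker list, with 2 of 10 higher and 1 lower, summed to 437 to 472 CPM per kb in WT and 461 to 517 in Wfs1KO. Of 7 alpha cell markers 1 rose, and of 7 delta and PP cell markers 3 rose.

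**Figure D5:**
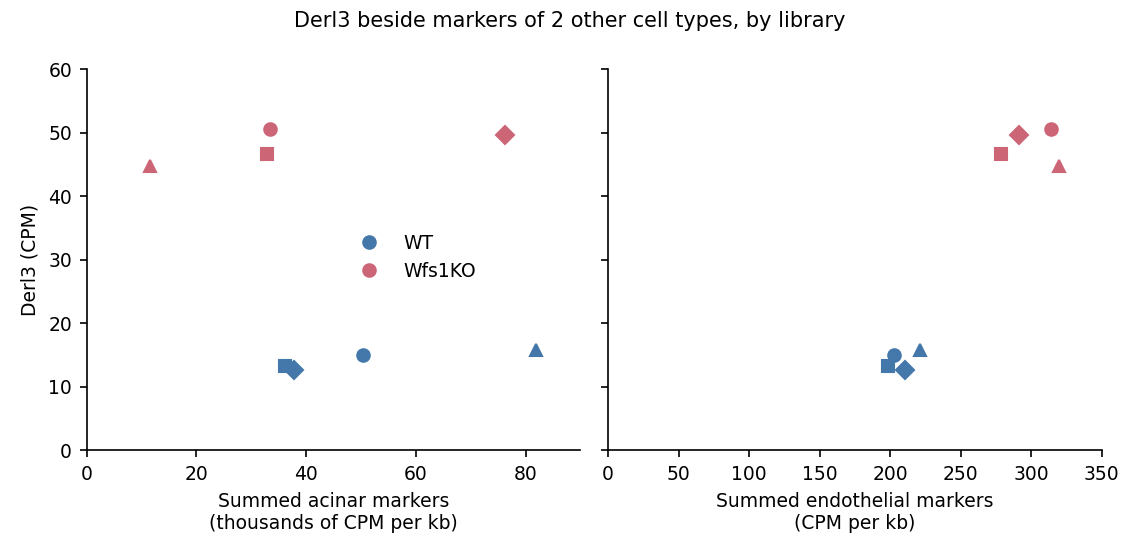
Derl3 (CPM, vertical) against the summed level of 20 acinar markers in kilo-CPM per kb (left) and of 14 endothelial markers in CPM per kb (right), 1 point per library, WT in blue and Wfs1KO in red, with shape for the replicate number (circle 1, square 2, triangle 3, diamond 4). Derl3 parts the genotypes, the acinar sum does not (Wfs1KO replicate 4, at 76224 CPM per kb, lies within the WT range, and the other 3 Wfs1KO libraries lie below it), and the endothelial sum parts them too.

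Other genes of the pathway, in lists chosen with earlier results of these data known, did not all move with the members. The 15 ER chaperones all rose (median log2 fold change 0.57), among them Sdf2l1 (119 ± 6.31 CPM in Wfs1KO against 59.4 ± 4.42 CPM in WT, SD, n = 4), a cofactor of BiP, Creld2 (0.67) and Dnajc3 (0.66). Of 14 genes of glycan trimming and oxidation that come before ERAD 6 rose and 1 fell (median 0.17). Calreticulin (Calr, 0.45), glucosidase I (Mogs, 0.46) and the folding sensor Uggt1 (0.37) rose, while Ero1lb, an oxidase of the ER abundant in beta cells, fell (-0.81, SE 0.07, edgeR adjusted p = 6.53e-06).

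Further ligases and adaptors of ERAD moved little. Of 20 other ERAD ligases and ligase partners 3 rose and 0 fell (median 0.03): Rnf103 (0.28), Ubac2 (0.28) and Tmem129 (0.21). Of 27 other adaptors of VCP and deubiquitinases 3 rose and 1 fell (median 0.04). These were Usp25 (0.20), Rad23b (0.17) and Ubqln4 (0.17), and Usp13, which fell (-0.81, edgeR adjusted p = 0.0360) at only 3.02 ± 0.346 CPM in WT and 1.70 ± 0.559 CPM in Wfs1KO (SD, n = 4). With the replicate block 1 of this list rose. The shares that rose, 15.0% of the ligase list and 11.1% of the adaptor list, stand beside 10.4% of all tested genes.

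The proteasome, which degrades what ERAD delivers, had values above 0 in nearly all subunits, but few passed. Of 14 core particle subunits 1 rose, Psma7 (0.20), and 14 of 14 values were above 0 (median 0.14). Of 18 subunits of the regulatory particle 3 rose, Psmd8 (0.25), Psmd7 (0.29) and Psmc3 (0.19), and 17 of 18 values were above 0 (median 0.14). With the replicate block Psma7 did not pass. The shares that rose were 7.14% of the core and 16.7% of the regulatory particle, beside 10.4% of all tested genes. Nfe2l1, a transcription factor of proteasome genes that is itself a substrate of ERAD, rose (0.31, SE 0.06, edgeR adjusted p = 0.00303).

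Of 11 sensors and factors of the unfolded protein response 5 rose and 0 fell (median 0.25). Beside Nfe2l1 these were Atf6 (0.31), Atf4 (0.35), the kinase gene Eif2ak3 (0.42) and the protease gene Mbtps2 (0.21). Ern1, whose product IRE1 cuts Xbp1 RNA, did not pass (0.25, edgeR adjusted p = 0.0557). Eif2ak3, Mbtps2 and Ern1 are named after their values were seen. Values of the 11 ran from -0.70 to 0.77 with 9 above 0, and the genes at both ends did not pass. Of 8 receptors of ER-phagy, the removal of ER by autophagy, 2 rose, Ccpg1 (0.35) and Retreg1 (0.67), and 1 fell, Calcoco1 (-0.21). With the replicate block 1 of these receptors rose.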

How the data were processed

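Polyadenylated RNA of islets was sequenced in 4 WT and 4 Wfs1KO samples, named by the genotype and replicate number of their labels. Per the submitters' processing notes, the authors used bcl2fastq, STAR 2.6.0a with the mouse build mm10, HOMER 4.11.1 and DESeq2. The deposited counts are raw reads over the exons of 1 model per gene, per the file headers, whose HOMER command names no strand option. Reads of 11 members with an exon overlapping a gene on the other strand therefore cannot be assigned by strand. These members are Man1b1, Syvn1, Derl2, Rnf5, Rnf139, Aup1, Vcp, Ufd1l, Ngly1, Hm13 and Dnajb14. No counts are given for the other-strand partners of Rnf5, Hm13 and Dnajb14. The authors' deposited log2 fold changes, p-values and adjusted p-values come from DESeq2, with settings not given in the sources used here.

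The 34 members and the other gene lists were chosen with earlier results of these data known. The text names all members, up to 3 called genes of each other list with the smallest adjusted p, and called genes that went against their list. Of the unfolded protein response list it names every called gene and Ern1, which did not pass. Defining markers are named for some of the marker lists only. Genes were kept by edgeR's filterByExpr (minimum count 10, minimum total 15), leaving 15733 of 24537. Wfs1KO was compared with WT by edgeR 4.0.16 (R 4.3.3) with TMM scaling and a robust quasi-likelihood F-test, adjusted by Benjamini-Hochberg over all 15733, and the common biological coefficient of variation was 10.7%. CPM use TMM-scaled library sizes (exon counts 15810830 to 27057617), and levels are CPM per kb of the table's exon length. Intervals are 95%. The scripts were tested on simulated data. Alternatives were DESeq2 1.42.0, limma 3.58.1, other scaling and filters, covariates, replicate subsets and leaving out each library.

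Deviations of same-numbered samples from their genotype means correlated at 0.153, 0.443, 0.269 and 0.188 for replicates 1 to 4. However, 1 of 4 numbers matched itself best. Replicate 2 correlated best with 1, 3 with 4 and 4 with 3, the split seen on the first principal component. The labels do not say what the numbers mark, and the main test is unpaired. The alternative with the replicate block gives the paired analysis.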

Additional observations from a re-analysis of the deposited data

Results flagged for a closer look

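In 6 of 68 groups of 4 libraries (34 members in 2 genotypes) the highest or lowest library stood apart from the other 3 by more than Dixon's 95% critical value for the gap over the range, and chance alone flags about 1 in 20 such groups. Syvn1 was 134 CPM in Wfs1KO replicate 3, against 99.97 to 106 CPM in the other 3 libraries. Ube2g2 was 66.3 CPM in WT replicate 2, against 74.96 to 75.6 CPM, and 87.3 CPM in Wfs1KO replicate 3, against 82.9 to 83.6 CPM. Selenos was 84.2 CPM in WT replicate 2, against 94.4 to 95.2 CPM. Ngly1 was 52.1 CPM in WT replicate 1, against 45.5 to 46.5 CPM, and Dnajb14 was 20.8 CPM in WT replicate 2, against 24.9 to 25.3 CPM.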

How the results depend on the processing

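The main fit gave 1635 genes higher, 1335 lower and 18 members higher. With the endothelial score as a covariate these were 170, 87 and 6, with the members' median log2 fold change at 0.38, against 0.22. In that fit 31 of 34 values were above 0. The score did not overlap between genotypes, so that fit cannot separate its part from that of genotype. Replicates 3 and 4 alone gave 964, 882 and 13, and a threshold of 0.01 gave 962 and 782 genes. Of the members that rose, Edem1, Edem3, Syvn1, Rnf5 and Ube2g2 did not pass at 0.01. Replicates 1 and 2 alone gave 1548 genes higher, 1391 lower and 11 members higher. Leaving out 1 library gave 1354 to 1460 genes higher, 1019 to 1299 lower, 15 to 19 members higher and 0 to 1 lower. The 1 member lower was Bag6, called also with DESeq2 (1), limma-voom (1), a filter of 1 CPM (1), the replicate block (1) and replicates 1 and 2 against 3 and 4 as a term (1). The replicate block gave 1603 genes higher and 1329 lower and changed no other member's call. Of the 18 members that rose, 5 kept their call in each of 20 settings (Os9, Erlec1, Derl1, Derl3 and Selenos), and 15 kept it without any 1 library. In these settings 0 member values reversed a called direction; why others lost their call was not tested. The lowest count of a member in a library was 230, and how depth limits the calls was not tested.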

Other observations

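Set against the hormone the beta cells make, the members stood higher still. The ratio of their summed level to that of Ins1 and Ins2, per kb of exon, was 5.10 ± 0.713 thousandths in WT and 10.6 ± 1.31 thousandths in Wfs1KO (SD, n = 4). Ranges were 4.14 to 5.80 and 9.28 to 12.4. The insulin genes are part of this ratio, and both fell. The log2 fold change was -0.79 for Ins2 (edgeR adjusted p = 1.45e-04) and -0.41 for Ins1 (edgeR adjusted p = 0.00833). The members' sum alone was 1.30 times as high in Wfs1KO as in WT. Relative to Hspa5, which encodes the chaperone BiP, Derl3 was 0.0205 ± 0.00142 in WT and 0.0463 ± 0.00420 in Wfs1KO (SD, n = 4), with no overlap.

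Within the complexes other ratios overlapped between genotypes. Syvn1 to Sel1l per kb was 0.419 ± 0.0530 in WT and 0.343 ± 0.0857 in Wfs1KO, and Svip to Vcp was 1.48 ± 0.157 and 1.27 ± 0.122 (SD, n = 4). Across all genes with a promoter, 9 of the 21 tested genes with an ERSE rose and 0 fell, Syvn1 and Derl3 among them with Hspa5, Calr, Creld2, Dnajc3, Hsp90b1, Pdia6 and Alg12. Of 9 tested genes with an ERSE-II 4 rose, which were Herpud1, Dnajb11, Krtcap2 and Nucb1, and of 123 with a UPRE 32 rose and 13 fell. Of 345 with a CARE 50 rose (14.5%) and 31 fell. Over all tested genes 10.4% rose and 8.49% fell, and the shares that rose were 42.9% for the ERSE, 44.4% for the ERSE-II and 26.0% for the UPRE. However, of the 9 ERSE genes that rose, all but Alg12 belong to the members or lists chosen with earlier results of these data known. So do Herpud1 and Dnajb11 of the ERSE-II genes, and the ERSE and ERSE-II shares are therefore not independent of that choice.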
